A study of Mus musculus with 6 samples.

Results

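The genes of 7 families of splicing proteins, chosen by their symbols (Srsf, Hnrnp, Snrp, Sf3, Mbnl, Celf and Rbfox), were compared between quadriceps muscle with and without muscle Fbxw7. The symbols pick out 63 of the 22564 gene rows in the table, of which 11 are Srsf, 20 Hnrnp, 12 Snrp, 8 Sf3, 3 Mbnl, 6 Celf and 3 Rbfox genes. Both groups of mice carried Fbxw7 flox/flox alleles, in which the gene can be cut out by Cre recombinase. The 3 knockout samples also carried MCK-Cre, which expresses Cre from the muscle creatine kinase promoter and so acts in muscle fibres, and the 3 control samples carried the floxed alleles alone. Quadriceps was frozen and powdered, ribosomal RNA was removed and the remaining RNA was sequenced. Fbxw7 encodes the substrate-binding F-box subunit of a ubiquitin ligase that marks proteins for degradation. The labels give no age, sex or treatment of the mice and do not say that each sample came from a separate animal, so the p-values reflect only how much these samples varied, which may be technical.

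Splicing removes introns from pre-mRNA in the spliceosome, a machine built from small nuclear RNAs and proteins. The Snrp genes encode the Sm ring that holds each spliceosomal small nuclear RNA and proteins bound to one of them, and the Sf3 genes encode the SF3a and SF3b complexes that hold U2 at the branch point of the intron. Srsf proteins bind exons and mostly favour their use, Hnrnp proteins bind many pre-mRNAs and often oppose it, and the Mbnl, Celf and Rbfox proteins set muscle and neuron splicing patterns, with Mbnl and Celf proteins acting in opposite directions on many muscle exons. The levels described here are of whole genes and say nothing on which exons were used.

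The targeted gene was read first. Fbxw7, on mouse chromosome 3 from 84815268 to 84979198 (build mm10), had 6.51, 6.23 and 6.36 FPKM in controls 1 to 3 and 4.02, 3.86 and 3.81 FPKM in knockouts 1 to 3, so that every knockout sample lay below every control. FPKM is a fragment level scaled for transcript length and library depth. The log2 change was -0.69 (SE 0.12, limma adjusted p = 0.0028), and the exact two-sided permutation p was 0.1, the smallest that 3 samples against 3 allow. The FPKM covers the whole gene and the tissue holds cells other than fibres. Estimated fragments came to between 8435731 and 11783852 in a control library and between 3150443 and 6704228 in a knockout library, the fewest in knockout 1. The median gene was 0.21 higher in knockout than in control on the log2 scale. Each log2 change below of a gene called from FPKM with all 6 libraries is therefore followed by its value relative to that median.

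Of the 63 genes, 56 averaged 0.5 FPKM or more across all 6 libraries and were tested. In knockout muscle 10 of the 56 were raised and 5 were lowered at an adjusted p under 0.05 in limma on log2(FPKM + 0.1), shares of 17.9% and 8.93%. Of all 11659 genes tested, 24.5% were raised and 10.1% were lowered, 34.6% in either direction, so neither share of the splicing genes was above that of all genes. The raised genes were Celf1, Celf2, Rbfox2, Hnrnpk, Hnrnpl, Hnrnpu, Snrpd3, Sf3a1, Sf3a2 and Sf3b2, and the lowered genes were Rbfox1, Snrpb, Snrpn, Snrpf and Hnrnpdl. No called member changed by as much as 1 on the log2 scale. The 3 knockout values did not overlap the 3 control values in 16 members that were higher and 8 that were lower in knockout, against 35.7% and 14% of all tested genes, 49.8% in either direction. The median log2 change of the members was 0.18, beside 0.21 over all tested genes.

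**Figure D1:**
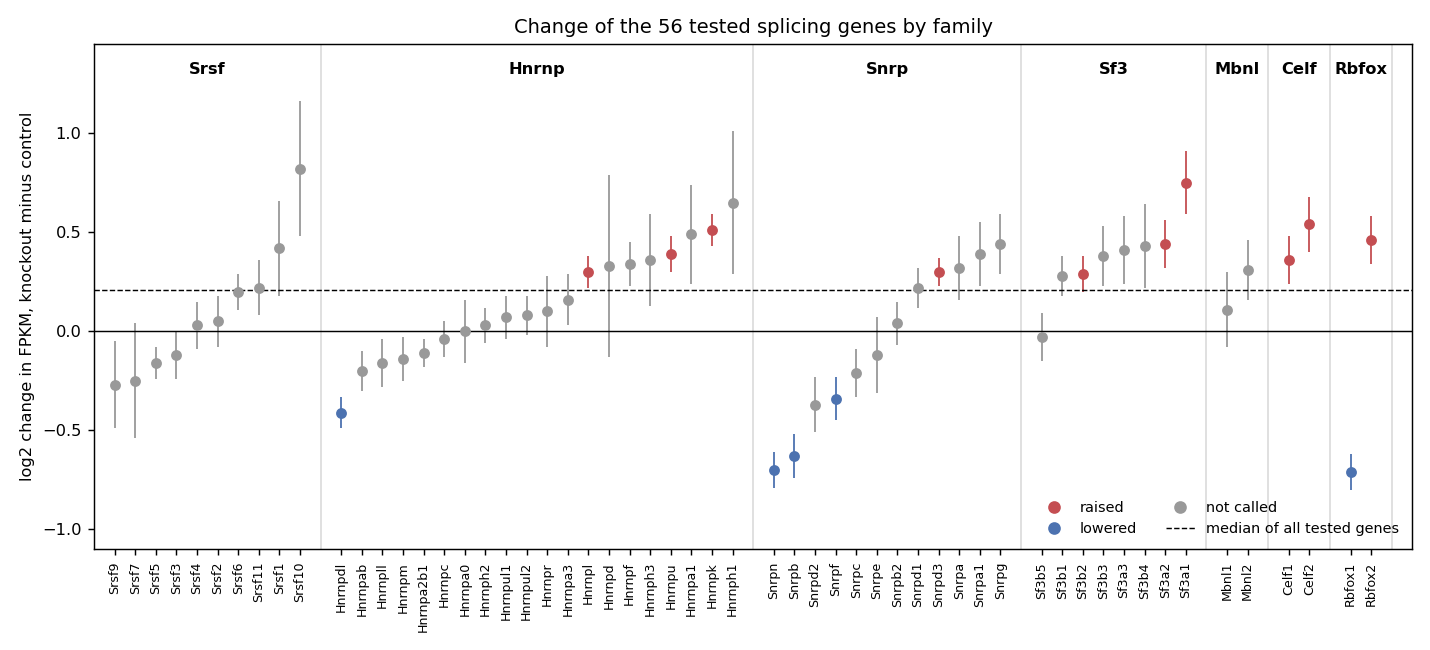
The log2 change in FPKM, knockout minus control, is plotted for each of the 56 tested members as a point with its standard error, ordered within each family; red points are raised, blue points lowered and grey points not called, and the dashed line marks the median of all tested genes at 0.21. Rbfox1, Snrpn and Snrpb lie lowest, between -0.71 and -0.63, and the grey Srsf10, Hnrnpd and Hnrnph1 have the widest error bars.

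The 7 members under the filter were Celf3, Celf4, Celf5, Celf6, Mbnl3, Rbfox3 and Srsf12. Most are known from neurons, Rbfox3 as the neuronal nuclear antigen NeuN, and Mbnl3 is known from muscle precursor cells and placenta. Celf6 and Srsf12 were listed at 0 in all 6 libraries. The highest value of Celf4 was 0.231 FPKM, of Celf5 0.0933 FPKM and of Celf3 0.0509 FPKM. Rbfox3 was listed at 0 in all 3 knockouts and reached 0.0476 FPKM in controls, while Mbnl3 was listed at 0 in all 3 controls and reached 0.17 FPKM in knockouts. These levels are too low to compare.

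The Rbfox genes encode splicing regulators that bind the element UGCAUG beside alternative exons, and the 2 expressed members moved in opposite directions. Rbfox1, the abundant muscle form, lies on chromosome 16 from 5885355 to 7411526 on the + strand. It had 60, 59.7 and 53.4 FPKM in controls 1 to 3 and 32, 36.2 and 37.3 FPKM in knockouts 1 to 3. All knockouts lay well below all controls, with means of 57.7 ± 3.76 and 35.2 ± 2.81 FPKM (SD, n = 3 each). The log2 change was -0.71 (SE 0.09, limma adjusted p = 0.000607), or -0.92 relative to the median gene, the lowest of the 56 members, and its call held under all 18 alternative settings, in which the change ran from -0.92 to -0.65. Rbfox2, the widely expressed form, lies on chromosome 15 from 77078990 to 77307004. It had 8.62, 8.22 and 7.11 FPKM in controls and 10.2, 11.6 and 11.2 FPKM in knockouts, again without overlap. The log2 change was 0.46 (SE 0.12, limma adjusted p = 0.0175), or 0.25 relative to the median gene. The call of Rbfox2 ended under median-of-ratios scaling (adjusted p = 0.0677), quantile normalization (0.0594) and without knockout 2 (0.0636) or knockout 3 (0.0506). Rbfox1 was thus 7.25 ± 0.271 times as abundant as Rbfox2 per length in controls and 3.20 ± 0.116 times in knockouts (FPKM ratio within a library, SD, n = 3 each). That ratio, chosen after the values were seen, was 6.96, 7.27 and 7.50 in controls and 3.13, 3.13 and 3.33 in knockouts, and it does not depend on a scaling factor between libraries. Its separation had to follow from Rbfox1 being lower and Rbfox2 higher in every knockout, so it is no further test.

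The RefSeq promoters of Rbfox1 (build GRCm38.p6, 250 bases before the start to 50 after it) are shown because the gene had the lowest log2 change and a call that held under every setting. They were searched, like those of the other members shown here, for 3 short motifs on both strands, and matches are in capitals. The E-box, the element bound by Myc and clock factors, was searched as CACGTG. The ETS motif, a common element of housekeeping promoters, was searched as CCGGAAGT. The last motif was the core of the CCAAT box, which carries its letters in its name. None of these motifs contains another.
Rbfox1 upstream start, chr16:5884543-5884842, + strand: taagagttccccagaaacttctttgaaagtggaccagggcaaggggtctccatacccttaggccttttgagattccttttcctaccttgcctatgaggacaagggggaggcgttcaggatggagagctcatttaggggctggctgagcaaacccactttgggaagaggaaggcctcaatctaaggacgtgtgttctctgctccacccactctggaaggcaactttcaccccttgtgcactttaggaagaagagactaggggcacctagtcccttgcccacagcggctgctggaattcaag
Rbfox1 downstream start, chr16:7069585-7069884, + strand: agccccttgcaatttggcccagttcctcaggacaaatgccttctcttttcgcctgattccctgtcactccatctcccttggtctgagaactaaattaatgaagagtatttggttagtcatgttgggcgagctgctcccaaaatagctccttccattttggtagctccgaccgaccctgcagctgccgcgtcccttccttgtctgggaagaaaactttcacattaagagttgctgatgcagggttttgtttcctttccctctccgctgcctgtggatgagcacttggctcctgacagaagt
Neither Rbfox1 window holds any of the 3 motifs. Their GC contents are 52.7% and 50%, with 3 and 7 CpG dinucleotides, against a median of 60.2% and 24 CpG over the 72 promoters of 49 tested members. Rbfox2, Snrpb, Celf4, Hnrnpll, Hnrnpul2, Sf3b4, Sf3b5 and Snrpd1 were not matched by symbol in the promoter table used here.

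Both expressed Celf genes were raised and neither expressed Mbnl gene was called. Celf1, which encodes an RNA-binding protein that promotes embryonic splicing patterns in muscle, had 14.3, 14.4 and 11.2 FPKM in controls and 17.8, 16.6 and 16.8 FPKM in knockouts. The groups did not overlap, control 3 being the lowest sample, and the log2 change was 0.36 (SE 0.12, limma adjusted p = 0.0465), or 0.15 relative to the median gene. That call is at the edge of the threshold, since it ended when any 1 of the 6 libraries was left out (adjusted p 0.0583 to 0.0945) and under median-of-ratios scaling (0.265) and quantile normalization (0.163). Celf2 had 7.80, 7.98 and 6.11 FPKM in controls and 9.93, 11.7 and 10.1 FPKM in knockouts, a log2 change of 0.54 (SE 0.14, limma adjusted p = 0.0181), or 0.33 relative to the median gene. The knockouts lay above the controls in every sample. Celf2 was not called from the scaled count signal as deposited, the second measure in the table (log2 change 0.23, adjusted p = 0.11), where its FPKM per unit of signal was 1.18 to 1.34 times the control mean in the knockouts. Without knockout 2 the adjusted p of Celf2 was 0.0677, and under median-of-ratios scaling it was 0.0509.

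Celf2 is also abundant in lymphocytes, and lymphocyte markers rose in the same samples. Summed FPKM of 9 B cell markers was 0.0855 to 0.231 in controls and 14.4 to 17.5 in knockouts. In controls 6 of the 9 (Cd79a, Ms4a1, Pax5, Blk, Fcer2a and Cr2) were listed at 0. All 6 tested B cell markers were raised, but they passed the filter only through their knockout values, so that count is no further support. Summed FPKM of 10 T cell markers was 0.706 to 1.25 in controls and 13.7 to 19.8 in knockouts. All 6 tested T cell markers were raised, with the same limit for most of them. With no filter all 9 B cell and all 10 T cell markers were raised. Hnrnpll, known as a splicing regulator of activated T and B cells, had 5.65 ± 0.236 FPKM in controls and 5.04 ± 0.327 FPKM in knockouts (SD, n = 3 each) and was not called (adjusted p = 0.336). It was called lowered under median-of-ratios scaling (log2 change -0.36, limma adjusted p = 0.0294) and quantile normalization (-0.42, limma adjusted p = 0.0178). The part of lymphocytes in the change of Celf2 was not tested. In whole muscle, fewer cells of a type and less RNA per cell cannot be told apart for any gene described here.

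Mbnl1 and Mbnl2 encode muscleblind proteins, which favour adult splicing patterns and are sequestered by repeat RNA in myotonic dystrophy. Mbnl1 had 24.4, 21.8 and 14.1 FPKM in controls and 20.7, 19.5 and 23.1 FPKM in knockouts, so that the knockouts lay inside the control range (log2 change 0.11, SE 0.19, limma adjusted p = 0.69). Mbnl2 had 30.3, 28.1 and 20.5 FPKM in controls and 35.4, 32.8 and 29.0 FPKM in knockouts (log2 change 0.31, SE 0.15, limma adjusted p = 0.136). Control 3 was the lowest sample of both genes, as it was of both Celf and both Rbfox genes among the controls. The ratio of Celf1 to Mbnl1 within a library was 0.683 ± 0.106 in controls and 0.812 ± 0.0730 in knockouts and overlapped between the groups.

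**Figure D2:**
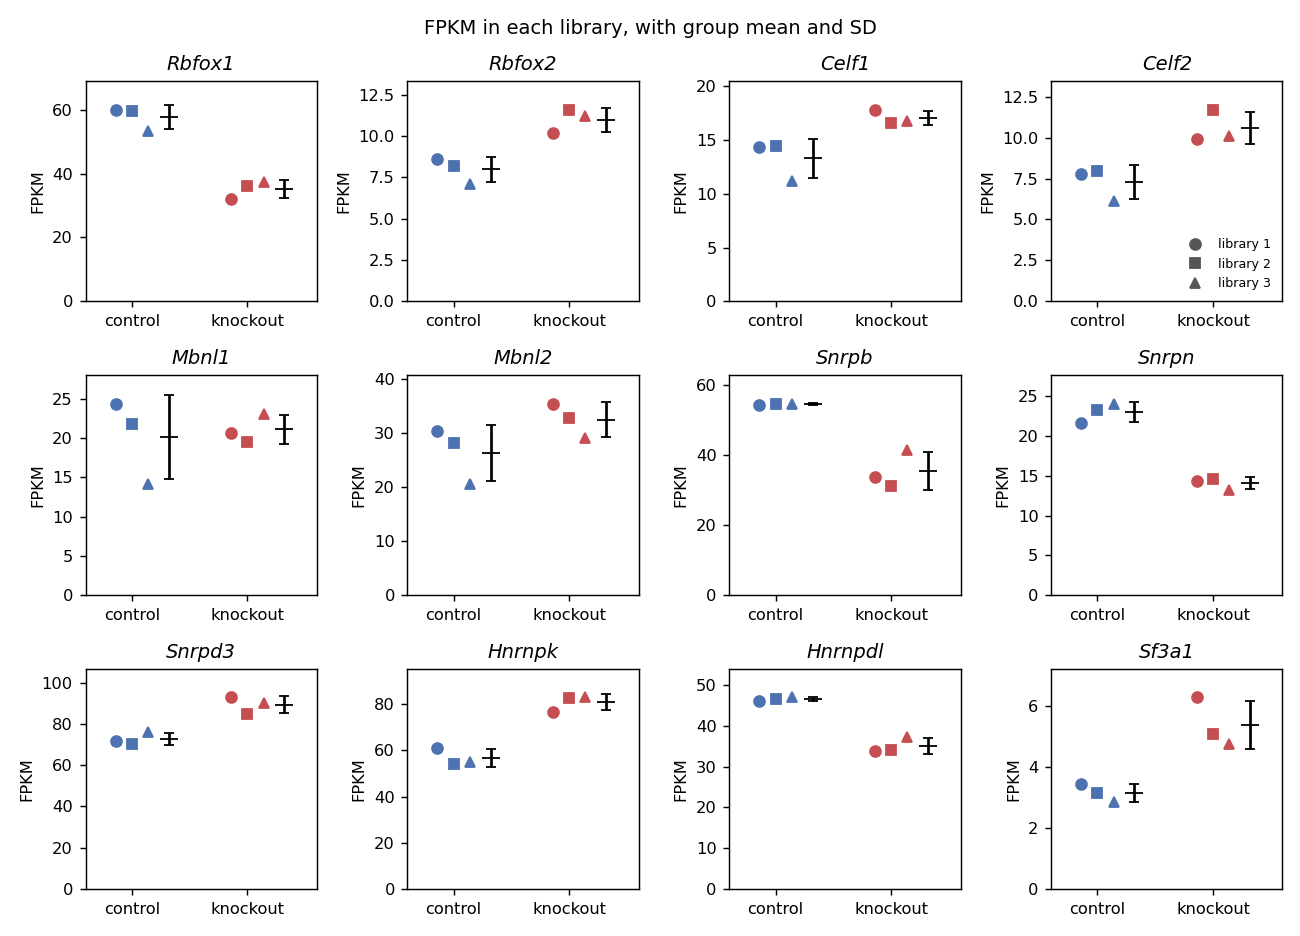
FPKM of 12 members in each library, with controls in blue, knockouts in red, a marker shape per library number, and the group mean with its SD in black; each vertical axis starts at 0. Rbfox1, Snrpb, Snrpn and Hnrnpdl lie lower in every knockout, Rbfox2, Celf1, Celf2, Snrpd3, Hnrnpk and Sf3a1 lie higher, and Mbnl1 and Mbnl2 overlap.

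Among the 12 Snrp genes, all tested, 3 were lowered and 1 was raised (25% and 8.33%), beside 10.1% and 24.5% of all tested genes. Their median log2 change was -0.04, beside 0.21 over all tested genes. Most Snrp genes have a longest coding transcript under 1500 bases. Of all tested genes that short, 19.6% were lowered and 18.2% raised, and the part of length in the Snrp changes was not tested. Snrpb encodes Sm protein B of the Sm ring, and Snrpn, an imprinted gene expressed from the paternal allele, encodes the closely related SmN, which takes the place of B in brain and heart. Both fell. Snrpb, on chromosome 2 from 130171414 to 130179403, had 54.2, 54.5 and 54.6 FPKM in controls and 33.7, 31.1 and 41.3 FPKM in knockouts. The 3 controls were nearly equal and every knockout was lower, giving a log2 change of -0.63 (SE 0.11, limma adjusted p = 0.00271), or -0.84 relative to the median gene. Snrpn had 21.6, 23.3 and 24.1 FPKM in controls and 14.4, 14.6 and 13.2 FPKM in knockouts, a log2 change of -0.70 (SE 0.09, limma adjusted p = 0.000784), or -0.91 relative to the median gene. The groups did not overlap, and the calls of Snrpb and Snrpn held under all 18 alternatives. The identifier of the row that the table calls Snrpn carries the name Gm38393 in GENCODE M21, on chromosome 7 from 59974149 to 60005064, where exons of Snurf, Snhg14 and another Snrpn entry overlap it on the same strand, so its signal cannot be set apart from theirs and the values may not be those of the SmN transcript alone.

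Snrpd3, which encodes the neighbouring Sm protein D3, was the only Snrp gene raised. It had 71.7, 70.4 and 75.9 FPKM in controls and 92.8, 84.9 and 90.1 FPKM in knockouts, without overlap, a log2 change of 0.30 (SE 0.07, limma adjusted p = 0.0119). Relative to the median gene the change was 0.09, and under median-of-ratios scaling the call ended (adjusted p = 0.472). B and D3 bind each other in the Sm ring. The ratio of Snrpb to Snrpd3, chosen after the values were seen, was 0.756, 0.775 and 0.719 in controls and 0.363, 0.367 and 0.458 in knockouts, and that of Snrpn to Snrpd3 was 0.301, 0.331 and 0.317 in controls and 0.156, 0.172 and 0.147 in knockouts. Both ratios separated the groups, but this had to follow, since Snrpb and Snrpn were lower and Snrpd3 higher in every knockout. It is no further test of these genes. The ratio of Snrpb to Snrpn was 2.37 ± 0.123 in controls and 2.53 ± 0.524 in knockouts and overlapped.

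Snrpf, which encodes Sm protein F, had 22.4, 23.8 and 26.7 FPKM in controls and 17, 20 and 20.6 FPKM in knockouts, a log2 change of -0.34 (SE 0.11, limma adjusted p = 0.0437), or -0.55 relative to the median gene. The knockouts were lower in every sample, but leaving out any 1 library other than knockout 3 ended the call (adjusted p 0.0544 to 0.125), and 21.3% of the 50-base stretches of its transcripts recur in transcripts of other genes, so its level is uncertain. The other Sm proteins were not called. Snrpg (G) had 16.6 ± 2.66 and 22.5 ± 3.24 FPKM (adjusted p = 0.0504) and Snrpd2 (D2) had 33.6 ± 4.67 and 26.0 ± 4.06 FPKM (adjusted p = 0.0729), in control and knockout (SD, n = 3 each). Snrpd1 (D1) had 13.8 and 16.0 FPKM and Snrpe (E) had 11.2 and 10.5 FPKM on average. The log2 changes of the ring genes ran from -0.70 for the uncertain Snrpn row to 0.44 for Snrpg. Snrpg was not called, and 18.1% of its 50-base stretches recur in transcripts of other genes. The U1 and U2 proteins Snrpa, Snrpc, Snrpa1 and Snrpb2 were not called either, with adjusted p between 0.0885 and 0.784.

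All 8 Sf3 genes were tested; 3 were raised, none was lowered and 7 of the 8 had a log2 change above 0, with a family median of 0.39 beside 0.21 over all genes. Of all tested genes 67.3% had a log2 change above 0 and 24.5% were raised. Sf3a1, which encodes the largest SF3a subunit, lies on chromosome 11 from 4160350 to 4182541. It had 3.45, 3.17 and 2.86 FPKM in controls and 6.30, 5.10 and 4.78 FPKM in knockouts. Every knockout lay above every control, a log2 change of 0.75 (SE 0.16, limma adjusted p = 0.00756), or 0.54 relative to the median gene, the largest of the 10 raised members. In knockout 1 the FPKM of Sf3a1 per unit of count signal was 1.43 times the control mean, and the change on the count signal was 0.58 (adjusted p = 0.00293). Under quantile normalization its adjusted p was 0.055.

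Sf3a2, another SF3a subunit, had 9.44, 9.82 and 8.90 FPKM in controls and 11, 13 and 14.5 FPKM in knockouts (log2 change 0.44, SE 0.12, limma adjusted p = 0.0253). Sf3b2, a subunit of SF3b, had 19.8, 20.1 and 18.0 FPKM in controls and 22.6, 24.7 and 23.7 FPKM in knockouts (log2 change 0.29, SE 0.09, limma adjusted p = 0.0345). Neither gene overlapped between groups, but relative to the median gene the changes were 0.24 and 0.08, and leaving out any library other than knockout 1 ended both calls (adjusted p 0.0529 to 0.112). Of the 5 not called, Sf3b1, the SF3b subunit that contacts the branch point and is often mutated in human blood cancers, had 14.5 ± 0.856 and 17.6 ± 1.10 FPKM in control and knockout (adjusted p = 0.053). Sf3b3 had 4.55 ± 0.648 and 5.91 ± 0.535 FPKM (adjusted p = 0.0804), Sf3a3 5.03 ± 0.602 and 6.75 ± 1.18 FPKM (0.087), and Sf3b4 5.71 ± 1.03 and 7.81 ± 1.85 FPKM (0.136). Sf3b5, the smallest subunit of SF3b and the most abundant of the 8 per length, had 25.5 ± 4.01 and 24.8 ± 0.334 FPKM (0.869). At an unadjusted p under 0.05 limma placed 6 of the 8 Sf3 genes above control and 0 below, beside 32.9% and 12.9% of all tested genes.

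All 20 Hnrnp genes were tested, and 3 were raised and 1 was lowered (15% and 5%), beside 24.5% and 10.1% of all tested genes. Their median log2 change was 0.09, beside 0.21 over all tested genes. Hnrnpk, which encodes a protein binding C-rich RNA and DNA, lies on chromosome 13 from 58391142 to 58403343. It had 61.0, 54.1 and 54.8 FPKM in controls and 76.8, 82.6 and 83.0 FPKM in knockouts. The knockouts lay above the controls without overlap, with a log2 change of 0.51 (SE 0.08, limma adjusted p = 0.00142), or 0.30 relative to the median gene. The call of Hnrnpk held under all 18 alternatives, although its change fell to 0.31 on the count signal and under median-of-ratios scaling, and 34.5% of its 50-base stretches recur in other transcripts, which makes its level uncertain. Hnrnpdl, a relative of hnRNP D whose human gene is mutated in a limb-girdle muscular dystrophy, lies on chromosome 5 from 100033577 to 100039664 and was the only lowered Hnrnp gene. It had 46.1, 46.6 and 47.0 FPKM in controls and 33.8, 34.0 and 37.3 FPKM in knockouts, a log2 change of -0.41 (SE 0.08, limma adjusted p = 0.0041), or -0.62 relative to the median gene. The groups were far apart for their spread, and the call of Hnrnpdl held under all 18 alternatives.

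The promoters of Hnrnpdl and its paralog Hnrnpd, both on the minus strand of chromosome 5, are shown with that of Hnrnpk because Hnrnpk and Hnrnpdl moved in opposite directions and Hnrnpd, described below, separated the knockout libraries. The promoter of Sf3a1 is shown beside them for its ETS motif. They are the RefSeq windows of GRCm38.p6, with matches to the 3 motifs, on either strand, in capitals.
Hnrnpk, chr13:58402068-58402367, minus strand: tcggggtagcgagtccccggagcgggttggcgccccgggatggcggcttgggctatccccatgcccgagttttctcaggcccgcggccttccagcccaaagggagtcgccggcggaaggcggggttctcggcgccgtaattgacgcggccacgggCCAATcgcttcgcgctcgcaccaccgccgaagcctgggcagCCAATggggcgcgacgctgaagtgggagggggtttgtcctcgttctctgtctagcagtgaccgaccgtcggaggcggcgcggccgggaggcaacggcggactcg
Hnrnpdl, chr5:100039173-100039472, minus strand: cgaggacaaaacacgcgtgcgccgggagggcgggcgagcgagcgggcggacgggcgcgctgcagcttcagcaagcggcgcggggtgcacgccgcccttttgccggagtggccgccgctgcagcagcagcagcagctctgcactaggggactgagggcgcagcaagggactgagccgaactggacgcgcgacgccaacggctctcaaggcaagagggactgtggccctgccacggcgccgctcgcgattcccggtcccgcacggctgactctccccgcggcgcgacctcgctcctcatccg
Hnrnpd, chr5:99978889-99979188, minus strand: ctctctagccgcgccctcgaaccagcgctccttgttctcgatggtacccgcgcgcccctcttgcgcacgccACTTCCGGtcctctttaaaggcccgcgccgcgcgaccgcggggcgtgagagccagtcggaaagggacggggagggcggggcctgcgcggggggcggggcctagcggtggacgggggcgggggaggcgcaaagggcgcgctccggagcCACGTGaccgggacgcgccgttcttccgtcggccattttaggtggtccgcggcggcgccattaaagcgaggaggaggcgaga
Sf3a1, chr11:4160104-4160403, + strand: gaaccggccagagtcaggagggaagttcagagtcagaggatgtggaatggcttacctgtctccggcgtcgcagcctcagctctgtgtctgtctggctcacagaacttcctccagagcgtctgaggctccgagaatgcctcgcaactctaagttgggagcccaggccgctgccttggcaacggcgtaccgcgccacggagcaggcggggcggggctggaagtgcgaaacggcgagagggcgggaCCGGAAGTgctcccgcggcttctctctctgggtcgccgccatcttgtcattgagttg
The Hnrnpk window holds 2 CCAAT boxes, the Hnrnpd window an ETS motif (read on the other strand) and an E-box, the Sf3a1 window an ETS motif and the Hnrnpdl window none. Their GC contents are 70.7%, 72.7%, 72.3% and 63.3% for Hnrnpk, Hnrnpdl, Hnrnpd and Sf3a1. Over the 72 promoters of tested members 15.3% hold the ETS motif, against 3.89% of all 32851 promoters in the RefSeq table, and the members' promoters are richer in GC (median 60.2% against 52.7%). The ETS motif was found at Hnrnpd, Hnrnpf, Sf3a1, Sf3a3, Sf3b2, Snrpe, Srsf11, Srsf4 and Srsf5, of which Sf3a1 and Sf3b2 were called. The E-box was present in 11.1% against 7.15% and the CCAAT box in 41.7% against 37.4%. A match is a run of letters in this window and not a bound site.

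Hnrnpu, which encodes a nuclear scaffold protein, had 31.5, 33.1 and 30 FPKM in controls and 40.8, 38.5 and 44.7 FPKM in knockouts, without overlap (log2 change 0.39, SE 0.09, limma adjusted p = 0.0101). Hnrnpl, which encodes a protein binding CA repeats, had 34.9, 38.2 and 32.5 FPKM in controls and 42.8, 43.8 and 43.1 FPKM in knockouts (log2 change 0.30, SE 0.08, limma adjusted p = 0.0243). Relative to the median gene these changes were 0.18 and 0.09, and under median-of-ratios scaling neither gene was called (adjusted p = 0.125 and 0.312). Without control 1 or 3, or without knockout 2 or 3, the adjusted p of Hnrnpl ran from 0.0578 to 0.0761. Hnrnpa2b1, one of the most abundant family members, had 105, 114 and 118 FPKM in controls and 101, 99.8 and 111 FPKM in knockouts and was not called (adjusted p = 0.274). Hnrnpf, a G-tract binder, had 29.6 ± 4.33 and 37.1 ± 1.42 FPKM in control and knockout (adjusted p = 0.0516), and Hnrnpab had 68.0 ± 6.20 and 59.2 ± 5.28 FPKM (adjusted p = 0.136). Under median-of-ratios scaling 5 Hnrnp genes were lowered and 1 was raised (25% and 5%), against 17.3% and 14.8% of all tested genes.

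None of the 10 tested Srsf genes was called by limma; at an unadjusted p under 0.05 the test placed 2, Srsf10 and Srsf6, above control and 0 below, beside 32.9% and 12.9% of all tested genes. Srsf2, an exonic enhancer binder and the most abundant Srsf gene per length, had 110, 135 and 128 FPKM in controls and 114, 117 and 158 FPKM in knockouts (log2 change 0.05, SE 0.13). The groups overlapped and the adjusted p was 0.793. Srsf5 had 62.3 ± 5.57 and 55.8 ± 2.27 FPKM in control and knockout (adjusted p = 0.186), Srsf6 20.5 ± 1.51 and 23.6 ± 0.44 FPKM (0.108), Srsf11 19.2 ± 2.74 and 22.4 ± 3.39 FPKM (0.259), and Srsf9 7.29 ± 0.371 and 6.25 ± 2.02 FPKM (0.373). In Srsf6 alone of the 10 the groups did not overlap, beside 49.8% of all tested genes in either direction. The spread between knockout samples was wide in Srsf10 and Srsf1, as set out next.

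Knockout 3 stood apart from the other knockouts in several members. A factor of 1.4, chosen after the values were seen, was used to describe this. In 9 of the 56 members (16.1%) FPKM in knockout 3 was at least 1.4 times that of both other knockouts, against 3.71% of all tested genes, and no other library was that far above its group in more than 1 member. Of 124 splicing genes outside the 7 families, listed below, 6 (4.84%) were that high in knockout 3. Hnrnpd, which encodes AUF1, a protein binding AU-rich mRNA, had 25.6 and 20.3 FPKM in knockouts 1 and 2 and 88.8 FPKM in knockout 3, while the controls had 28.4, 27.0 and 30.4 FPKM. Hnrnph1, a G-tract binder, had 79.7, 60.6 and 198 FPKM in knockouts 1 to 3 and 64.5, 67.8 and 56.6 FPKM in controls. Srsf10, which encodes a splicing repressor active when dephosphorylated, had 15.6, 10.8 and 32.9 FPKM in knockouts and 10.9, 10.1 and 9.10 FPKM in controls. In each of these genes knockout 3 was the highest of the 6 samples.

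Srsf1, an exonic enhancer binder, had 42.9, 37.6 and 76.6 FPKM in knockouts, and Hnrnpa1, a classical exon silencer, had 23.1, 20.1 and 39.3 FPKM. Hnrnph3, Hnrnpr, Snrpa1 and Snrpe were 1.81, 1.58, 1.42 and 1.4 times the nearest other knockout. Srsf7 went the other way, at 1.11 FPKM in knockout 3 against 2.60 and 2.14 FPKM. None of these 10 genes was called from FPKM with all 6 libraries. On the count signal 6 of the 56 members (10.7%) met the same description, against 2.4% of all tested genes: Hnrnpd, Hnrnph1, Hnrnph3, Hnrnpa1, Hnrnpr and also Hnrnpm, while Srsf1, Srsf10, Snrpa1 and Snrpe did not. Of the splicing genes outside the families 3 (2.42%) met it. On that signal as deposited Srsf10 had 290, 295 and 265 in controls and 364, 319 and 476 in knockouts, all 3 knockouts above all controls, and was called raised (log2 change 0.43, limma adjusted p = 0.0255). Snrpa1 was called raised there too (0.42, limma adjusted p = 0.0218). On that signal the median gene was 0.19 higher in knockout, and 30.4% of all tested genes were raised. After division by each library's total Hnrnpa1 was called raised as well (limma adjusted p = 0.0285), beside 27.1% of all tested genes. Of the 50-base stretches of Hnrnpa1 46.4% recur in transcripts of other genes, so its level is uncertain. FPKM per unit of count signal in knockout 3 was 1.43 times the control mean for Hnrnpd, 1.86 times for Hnrnph1, 1.95 times for Srsf10 and 1.44 times for Srsf1, and 0.998 times for Hnrnpa1 and Srsf7. That ratio moves when fragments are assigned to transcripts of other lengths, since Cufflinks sums a gene's FPKM over its transcripts. Without knockout 3, limma called 5 members raised and 5 lowered, 8.93% each, against 19% and 8.7% of all tested genes. The raised genes no longer called were Celf1, Rbfox2, Hnrnpl, Sf3a2 and Sf3b2, none of which stood apart in knockout 3 by the description above. Their log2 changes were 0.37, 0.45, 0.30, 0.35 and 0.29 without it, beside 0.36, 0.46, 0.30, 0.44 and 0.29 with all libraries. Leaving out knockout 2 instead also gave 5 raised members (8.93%), against 17.4% of all tested genes.

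**Figure D3:**
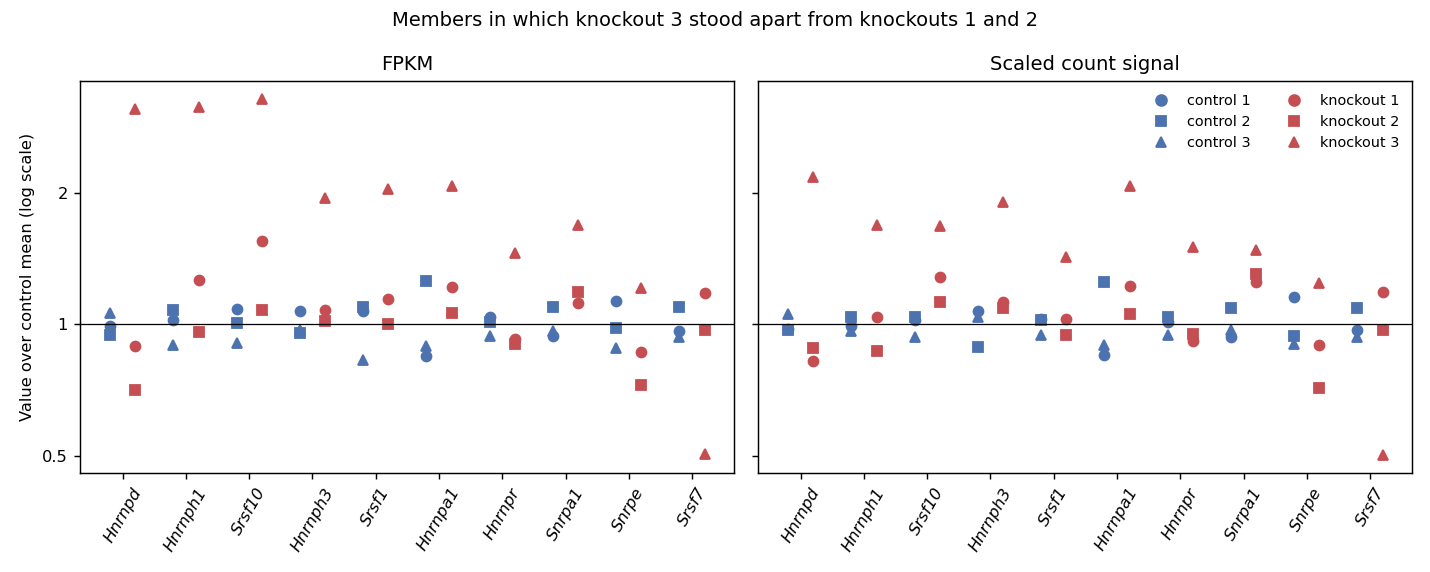
The values of 10 members in each library divided by the control mean, on a log axis, for FPKM on the left and the scaled count signal on the right, with controls in blue and knockouts in red and a marker shape per library number. Knockout 3 (red triangle) is highest in 9 genes and lowest in Srsf7, and for Hnrnpd, Hnrnph1, Srsf10 and Srsf1 it lies nearer to 1 on the count signal than on FPKM.

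The numbers of raised and lowered members changed with the scaling between libraries. With the FPKM rescaled by median of ratios, which brought the median log2 change of all genes from 0.21 to 0.01, 2 of the 56 members were raised (Hnrnpk and Sf3a1) and 12 were lowered, 3.57% and 21.4%, against 14.8% and 17.3% of all tested genes. With quantile normalization 5 were raised and 6 lowered, 8.93% and 10.7%, against 14.7% and 14.5%. On the scaled count signal as deposited 14 were raised and 5 lowered, against 30.4% and 11.9% of all tested genes, and after division by each library's total 9 were raised and 4 lowered, against 27.1% and 8.44%. No called member changed sign under any of these. The 5 calls that held under all 18 alternatives were those of Rbfox1, Snrpb, Snrpn and Hnrnpdl, which were lowered, and Hnrnpk, which was raised. The Sf3 median was 0.39 as deposited, 0.19 under median of ratios and 0.18 under quantile normalization, above that of all genes each time, and the Snrp median was -0.04, -0.24 and -0.18.

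**Figure D4:**
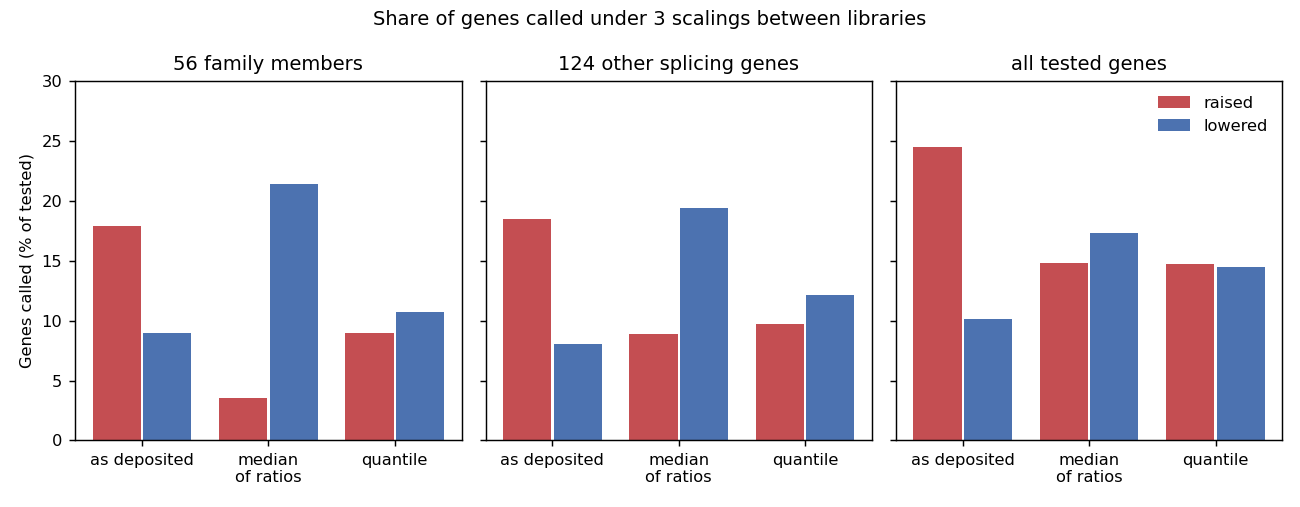
Percent of tested genes called raised (red) and lowered (blue) with FPKM as deposited, after median-of-ratios scaling and after quantile normalization, for the 56 members, 124 other splicing genes and all tested genes. The members go from 17.9% raised and 8.93% lowered as deposited to 3.57% and 21.4% under median of ratios.

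Of 129 listed genes outside the 7 families 124 were tested, and 23 were raised and 10 lowered, shares of 18.5% and 8.06%, both below the 24.5% and 10.1% of all tested genes. Among 41 tested splicing regulators 9 were raised and 1 was lowered (22% and 2.44%). The genes named from these lists are those of smallest p. Nono, a paraspeckle protein, rose from 26.5 ± 1.88 to 44.0 ± 4.83 FPKM (limma adjusted p = 0.00119), and Khsrp, a KH-domain protein, from 3.82 ± 0.0627 to 6.31 ± 0.489 FPKM (0.00344). Rbm4b rose from 1.03 ± 0.0384 to 2.19 ± 0.365 FPKM (0.00645) and Tra2a, a partner of Srsf proteins, from 9.10 ± 0.101 to 12.4 ± 0.417 FPKM (0.00876), in each case without overlap. The calls of Nono and Khsrp held under all 18 alternatives, that of Tra2a ended under median-of-ratios scaling (adjusted p = 0.0972) and quantile normalization (0.0672), and that of Rbm4b ended on the count signal as deposited (0.0637).

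Among 73 tested spliceosome components outside the families 12 were raised and 8 lowered (16.4% and 11%), beside 24.5% and 10.1% of all tested genes. Lsm4, a member of the Sm-like ring of U6, fell from 37.5 ± 1.57 to 25.3 ± 2.31 FPKM (limma adjusted p = 0.00205). Cdc5l, a core protein of the Prp19 complex, rose from 9.40 ± 0.568 to 14.3 ± 0.198 FPKM (0.00215), Txnl4a, a U5 protein, from 7.42 ± 0.887 to 13.7 ± 2.73 FPKM (0.00542), and Xab2 from 3.74 ± 0.542 to 6.32 ± 0.508 FPKM (0.00583). These 4 calls held under all 18 alternatives. Of 10 kinases and phosphatases that act on splicing factors 2 were raised and 1 was lowered (20% and 10%). Srpk2, a kinase of Srsf proteins, rose from 3.77 ± 0.157 to 6.27 ± 0.517 FPKM (limma adjusted p = 0.0037), and Srpk3, its muscle relative and a target of Mef2 in the mouse, from 19.9 ± 1.53 to 25.3 ± 1.13 FPKM (0.0215), a call that ended in 8 of the 18 alternatives, among them median-of-ratios scaling (0.322), quantile normalization (0.0518) and each fit without control 1 or 2 or knockout 2 or 3 (0.059 to 0.0801). Clk3, of the Clk family that phosphorylates Srsf proteins in the nucleus, fell from 22.3 ± 1.47 to 16.5 ± 0.278 FPKM (0.00716), and Clk4 had 23.4 ± 1.47 and 20.3 ± 2.74 FPKM (adjusted p = 0.19). The calls of Srpk2 and Clk3 held under all 18 alternatives.

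Markers of several cell types differed between the groups. Summed FPKM of 12 muscle fibre markers was 48331 to 53261 in controls and 23600 to 25039 in knockouts, with 4 raised and 6 lowered, and that of 8 Schwann and nerve markers was 76.3 to 85.5 and 122 to 130, with 5 raised. Satellite cell markers summed to 9.27 to 11.1 and 14.1 to 15.4 FPKM, macrophage markers to 153 to 175 and 182 to 209 FPKM, adipocyte markers to 445 to 463 and 544 to 625 FPKM, fibroblast markers to 495 to 523 and 550 to 633 FPKM, and endothelial markers to 108 to 117 and 104 to 113 FPKM. Snrpn, which is known from neurons, fell while the Schwann and nerve markers were higher. The part of these cell types in the members' changes was not tested.

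Of the 15 called members 8 have an exon overlapping a gene on the opposite strand (Celf2, Hnrnpk, Hnrnpl, Hnrnpu, Sf3a2, Sf3b2, Snrpd3 and Snrpf), beside 20 of all 56 tested members. The kit keeps the strand, but whether counting used it is not stated, so signal from both strands may be joined there. Shared 50-base stretches were scored in 55 of the 56 tested members, all but Snrpn. In 18 of them at least 10% of the stretches recur in transcripts of other genes, which makes their levels uncertain. The called ones among these 18 are Hnrnpk and Snrpf. The highest shares were 49.3% in Sf3b4, 49% in Hnrnpf and 46.4% in Hnrnpa1, so the values given for them carry the same limit. Length was taken for 55 of the tested members, all but Snrpn, whose identifier has no coding transcript in GENCODE M21. Of the 10 members whose longest coding transcript is under 1500 bases, all but Srsf9 being Snrp genes, 0 were raised and 2 lowered by limma, and at an unadjusted p under 0.05 the test placed 2 above and 3 below control, beside 23.8% and 24.4% of all shorter genes. Of the 45 longer members 10 were raised and 2 lowered. Over the 10992 tested genes with a length, 18.2% of the shorter and 26.3% of the longer were raised, and 19.6% and 8.52% were lowered.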

How the data were processed

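RNA of 3 control and 3 knockout quadriceps samples was sequenced after ribosomal RNA removal with a stranded kit, per the labels' protocols. Per the submitters' processing notes the authors used cutadapt 1.9.3, HISAT2 2.0.4, Cufflinks and Cuffdiff with build mm10. No version of Cufflinks or Cuffdiff is stated there. The deposited table gives FPKM per gene, normalized by the authors to transcript length and depth; how libraries were scaled to each other is not stated. Its columns headed as counts are a scaled signal deposited by the authors, estimated fragments times a constant per library. Only 92.6% to 94.2% of values were whole multiples of it (tolerance 0.1), so no count test was run. The table has 22564 rows, 1 line was emptied for this work, and rows of 79 symbols that occur more than once were summed, leaving 22481 symbols.

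The 11659 genes averaging 0.5 FPKM or more were tested with limma 3.58.1 in R 4.3.3 on log2(FPKM + 0.1), with empirical Bayes moderation and trend, with Benjamini-Hochberg adjustment across all of them and a threshold of 0.05. Fold changes on that scale understate those of low genes. The procedure was tested on simulated data. The families, the lists of other splicing genes and markers, and the naming rule were chosen with earlier results of these data known. Named are the expressed Mbnl, Celf and Rbfox genes; the 6 smallest p, the 2 highest means and the calls against the majority in each larger family; and the 4 smallest p in each other list. Ratios, the genes apart in knockout 3 and others named for comparison were chosen after their values were seen. Positions and overlaps are from GENCODE M21, matched by Ensembl identifier for all 63 members; promoters are from RefSeq, matched by symbol for 55. Replicate libraries differed by 1.82 to 5.90 times the sampling variance, so each was counted as 1 sample, which does not show that they came from separate animals. Alternatives were other pseudocounts, filters, scalings, thresholds and values, a fit without trend, a replicate block and each library left out.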

Additional observations from a re-analysis of the deposited data

How the results depend on the processing

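The call of Fbxw7 held in all 18 alternatives, between -0.96 and -0.59 on the log2 scale. Of the 15 called members 5 held in all 18, none reversed, and 19 of the 41 not called were called in at least 1. Counts as deposited were 10 members raised and 5 lowered (Srsf 0 and 0, Hnrnp 3 and 1, Snrp 1 and 3, Sf3 3 and 0; other splicing genes 23 and 10). Under median-of-ratios scaling they were 2 and 12 (Srsf 0 and 1, Hnrnp 1 and 5, Snrp 0 and 5, Sf3 1 raised; other 11 and 24), and under quantile normalization 5 raised (Hnrnp 2 lowered, Sf3 0 raised; other 12 raised). A threshold of 0.01 gave 2 raised, 3.57% against 12.5% of all tested genes (Hnrnp 1, Snrp 0, Sf3 1, other 8 and 2). No trend gave 6 raised, 10.7% against 23.2% of all tested genes (Snrp 0, other 5 lowered). Snrp raised was 2 (16.7%) with a pseudocount of 1, with a filter at 2 FPKM and with genes at 0 left out. Of all tested genes 24.9%, 27.6% and 25% were raised there. On the count signal as deposited, chosen after seeing the data, 1 Srsf gene was raised and 1 lowered, 2 Snrp and 5 Sf3 genes were raised; divided by library total, 1 Srsf gene was raised and 4 other genes lowered. Leaving out 1 library in turn gave 5 to 13 members raised (5 without knockout 2 or 3), 4 to 5 lowered, 0 to 1 Srsf, 2 to 3 Hnrnp, 1 to 3 Snrp and 1 to 5 Sf3 genes raised, 2 to 3 Snrp genes lowered, and 15 to 22 other genes raised and 5 to 11 lowered; the range for Sf3 runs from 1 without any library but knockout 1 to 5 without knockout 1. Over those fits 8.93% to 23.2% of the members were raised, against 17.4% to 23.9% of all tested genes. For lowered genes the shares were 7.14% to 8.93% against 7.01% to 9.35%. The cause of these shifts was not tested. Same-numbered libraries deviated with correlations of -0.07, 0.20 and 0.18, so the numbers were not taken to pair samples, and not every sample correlated best with its own number. With the replicate block 13 members were raised and 5 lowered, 23.2% and 8.93%, against 22.8% and 10.1% of all tested genes. There 3 Snrp genes were raised. Without knockout 1, the library of lowest depth, 13 members were raised and 4 lowered. These are 23.2% and 7.14%, against 23.9% and 9.35% of all tested genes.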
